A study of Homo sapiens with 4 samples.

Results

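The microRNA cluster on the long arm of human chromosome 19 was read out on microarrays of 4 oesophageal squamous cell carcinoma lines. Its members were taken by identifier alone, as every feature of the deposited table whose miRBase mature-sequence accession lies from MIMAT0002822 to MIMAT0002869, the stretch taken to hold miR-498 and the products named miR-512 to miR-527. The range spans 48 accession numbers, of which 47 had a row, out of 856 features in all. The table pairs no accession with a microRNA name, and the reference tables used here hold 0 of the 856 accessions, so that reading of the range could not be checked in the data. Single members are therefore given by accession. Whether the features outside the range hold further products of the cluster could not be checked either.

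The lines were KYSE-450 and KYSE-520, together with KYSE-890 and KYSE-960, all established human tumour lines from the squamous lining of the oesophagus. None carried a treatment, and no normal oesophagus and no placental or embryonal RNA was part of the design. From each line 500 ng of total RNA was labelled with the dye Hy5 and hybridized for 16 h at 32 °C to 1 one-colour chip of oligonucleotide probes. Each line had 1 array and so no replicate, and p-values are not given. Markers of squamous epithelium or of other cell types could not be looked up either, because they too are known only by name.

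The cluster is found in primates and is imprinted, with the paternal copy active. It is known for very high expression in the trophoblast of the placenta, with lower levels in embryonic stem cells, and for silence in most adult tissues, where its promoter is methylated. Many of its microRNAs carry a variant of the seed AAGUGC, the 5′ bases that pair with messenger RNAs, which they have in common with microRNAs of embryonic stem cells and of the miR-17 family.

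In the RefSeq annotation of GRCh38.p14 the 43 genes named MIR498, MIR512 and MIR515 to MIR527 lie at chr19:53666679-53762430, a span of 95.8 kb. The 42 of these genes with a mature sequence in the RefSeq table all lie on the plus strand. MIR1323, MIR1283-1 and MIR1283-2 lie inside the same span but have other names and were not counted. The genes MIR371A, MIR371B, MIR372 and MIR373, a separate group known from embryonic stem cells, follow downstream, and the first of them starts at position 53787675. The mature products carry 63 names but have 52 distinct sequences of 18 to 25 bases. Their median GC content was 47.7%, against 52.2% in the other human mature sequences of the same table. The letters GUGC stand within the first 9 bases of 18 of the 52 sequences (34.6%), against 83 of 2299 other human mature sequences (3.61%).

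The sequences below, from RefSeq, show what the probes of this cluster have to tell apart. The seed, bases 2 to 8, is in capitals. The first 6 are 3′-arm products and represent several of the seed groups.
hsa-miR-520c-3p: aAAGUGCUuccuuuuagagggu
hsa-miR-519a-3p: aAAGUGCAuccuuuuagagugu
hsa-miR-519d-3p: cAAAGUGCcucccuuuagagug
hsa-miR-518b: cAAAGCGCuccccuuuagaggu
hsa-miR-517a-3p: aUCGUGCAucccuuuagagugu
hsa-miR-517b-3p: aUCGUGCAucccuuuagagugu
The next 3 are 5′-arm products, which have another seed.
hsa-miR-519c-5p: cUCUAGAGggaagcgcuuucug
hsa-miR-522-5p: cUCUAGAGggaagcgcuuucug
hsa-miR-526a-5p: cUCUAGAGggaagcacuuucug
The last 3 come from outside the cluster and share a seed with part of it.
hsa-miR-372-3p: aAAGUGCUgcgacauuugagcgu
hsa-miR-302a-3p: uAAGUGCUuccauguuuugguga
hsa-miR-17-5p: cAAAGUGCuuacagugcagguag

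Several of these products are identical and cannot be measured apart by any probe. hsa-miR-517a-3p and hsa-miR-517b-3p have the same sequence, and hsa-miR-519c-5p and hsa-miR-522-5p share theirs with 4 further names, 6 in all. In total 5 sequences are each used by more than 1 name, which covers 16 of the 63 names. The largest seed group, UCUAGAG, holds 11 names but 3 sequences. The seed AAGUGCU is carried by 5 cluster names, miR-520a-3p to miR-520e-3p, and by 7 sequences from outside the cluster, those of miR-302a-3p to miR-302d-3p, miR-302e, miR-372-3p and miR-373-3p. The seed AAAGUGC belongs to miR-519d-3p and miR-526b-3p and also to 6 sequences of the miR-17 family. Features that share a whole sequence are not independent measurements, and with accessions only it could not be said which of the 47 these are. A shared seed alone leaves the other bases free to differ, as the sequences above show. Whether probes of 1 seed group pick up each other's targets was not measured.

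None of the 47 members gave a signal above background in any of the 4 lines. The background threshold of an array was its median over all features plus 3 times the SD of its dim side, the root mean square distance of the features below the median from it. It was 134.5 for KYSE-450 and 146 for KYSE-520, with 128.3 for KYSE-890 and 129.7 for KYSE-960, in the linear scanner units of the deposited table. In KYSE-450, 0 of 47 members passed, against 13.8% of all features. KYSE-520 likewise had 0 of 47 against 17.5%, KYSE-890 had 0 of 47 against 11.1%, and KYSE-960 had 0 of 47 against 11.0%. On at least 1 array 19.6% of all 856 features passed and on all 4 arrays 8.76%, while the count of members was 0 in both cases. All 168 features that passed on some array were thus features outside the range.

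The members' intensities were low and close together in every line. In KYSE-450 they ran from 45.5 to 101.5 with a median of 68.5, and in KYSE-520 from 42.5 to 118.5 with a median of 72.0. They ran from 44.0 to 119 with a median of 73.0 in KYSE-890 and from 38.5 to 103.5 with a median of 70.0 in KYSE-960. The ranges of the 4 lines overlapped widely. The threshold stood at 1.96 times the member median for KYSE-450 and 2.03 times for KYSE-520, with 1.76 times for KYSE-890 and 1.85 times for KYSE-960. The same arrays measured other features up to 55201 for KYSE-450 and 57264 for KYSE-520, with 65348 for KYSE-890 and 65472 for KYSE-960. Of all features, 39, 51, 11 and 11 lay above 1000 in the same order of lines. The members made up 5.49% of the features and supplied 1.13% of the summed intensity for KYSE-450 and 0.997% for KYSE-520, with 1.86% for KYSE-890 and 1.85% for KYSE-960. These sums consist of signal that did not pass the threshold, so they give no amount of the microRNAs.

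**Figure D1:**
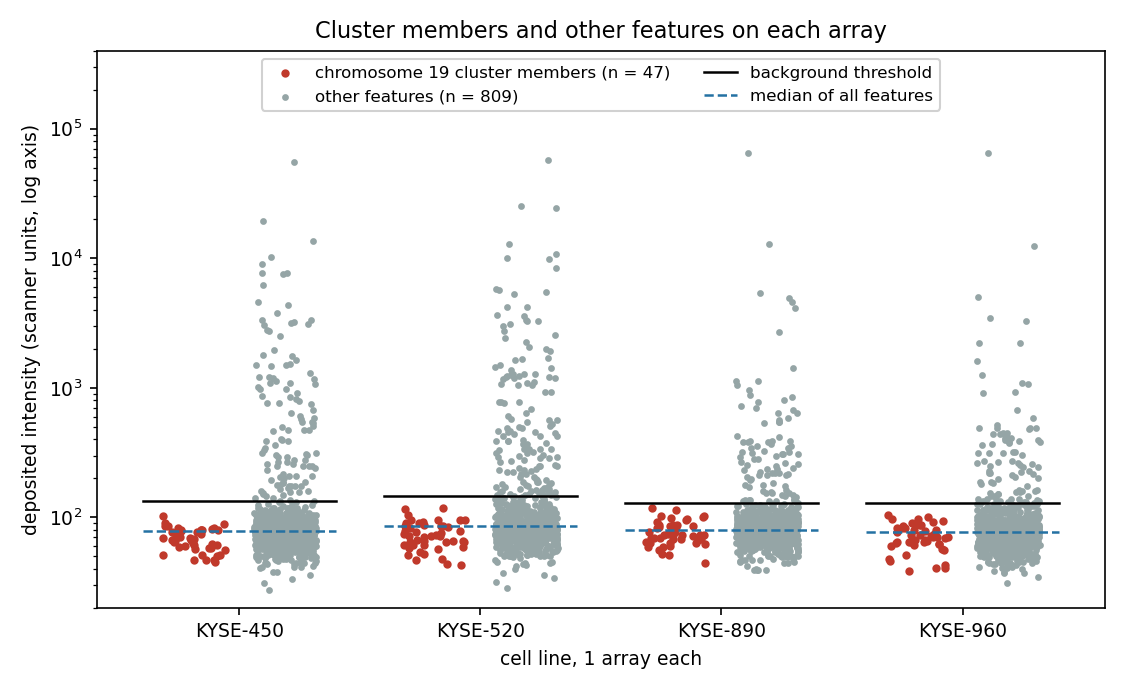
Deposited intensity in scanner units on a log axis for the 47 cluster members (red) and the 809 other features (grey) on the 1 array of each line, with the background threshold (solid line) and the median of all features (dashed line). All red points lie below the solid line on all 4 arrays, while other features reach 55201 or more on each.

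A feature below the threshold is not shown to be absent. The probes' response to their targets was not measured in these samples, since no RNA known to hold the cluster's microRNAs was hybridized, and the amount of RNA that would bring a feature over the threshold is unknown. No deposited value was 0 or negative, the lowest being 27.5 in the whole table and 38.5 among the members, and whether the slide's background had been subtracted is not stated.

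The 6 members that came nearest to the threshold did so in different lines. MIMAT0002833 came nearest, at 119 in KYSE-890, which was 92.8% of the threshold there. In the other lines it measured 71.0 (KYSE-450), 94.5 (KYSE-520) and 96.5 (KYSE-960), so KYSE-890 was its highest line and KYSE-450 its lowest. MIMAT0002839 measured 114.5 in KYSE-890 (89.3% of the threshold), against 62.0 (KYSE-450), 42.5 (KYSE-520) and 70.0 (KYSE-960). Its value in KYSE-520 was the lowest of all members on that array, and in 3 of the 4 lines it lay under the array median. These 2 members were the exceptions under other settings: both passed in KYSE-890, and in no other line, at 2 dim-side SDs, where 14.8% of all features passed on that array, or when the arrays were quantile-normalized first, where 14.5% did. Quantile normalization brought their KYSE-890 values to 155 and 139, with the threshold taken anew at 134.2.

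The other 4 of these members reached between 79.5% and 81.0% of the threshold at most. MIMAT0002854 measured 101.5 for KYSE-450 and 118.5 for KYSE-520, with 60.0 for KYSE-890 and 100 for KYSE-960, and was the highest member on the first 2 of these arrays. MIMAT0002853, the neighbouring accession, measured 77.5 for KYSE-450 and 95.5 for KYSE-520, with 101 for KYSE-890 and 103.5 for KYSE-960, and was the highest member in KYSE-960. MIMAT0002850 reached 116.5 in KYSE-520 and was lower elsewhere, at 80.5 (KYSE-450), 96.0 (KYSE-890) and 64.5 (KYSE-960). No line was the high one throughout, since 3 of the 6 were nearest to the threshold in KYSE-890, 2 in KYSE-520 and 1 in KYSE-960. MIMAT0002847 was the remaining one, at 102 in KYSE-890, against 56.5 (KYSE-450), 86.0 (KYSE-520) and 66.0 (KYSE-960).

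At the other end, 2 members were dim on every array. MIMAT0002864 measured 47.0 for KYSE-450 and 48.0 for KYSE-520, with 56.0 for KYSE-890 and 40.5 for KYSE-960, a mean of 35.7% of the thresholds. MIMAT0002863, next to it in the table, measured 50.5 for KYSE-450 and 56.5 for KYSE-520, with 63.5 for KYSE-890 and 38.5 for KYSE-960, the last being the lowest member value of all. Both lay under the array median in all 4 lines.

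Members lay somewhat lower than the other features that were above background on no array, of which there were 641. In KYSE-450 the median was 68.5 over members and 73.5 over those others. In KYSE-520 it was 72.0 over members and 80.5 over the others. The values for KYSE-890 were 73.0 over members and 78.0 over the others, and those for KYSE-960 were 70.0 and 75. On the log2 scale the members' median minus that of the others was -0.10, -0.16, -0.10 and -0.10 in these lines in that order. The SD of single features was 13.4, 18.0, 16.4 and 16.6 units over members and 17.3, 20.3, 16.4 and 17.2 units over the others. The gap is a description of these arrays and was not tested. It was not spread evenly over the run of accessions. The first 33 members, a split chosen after the values were seen, had medians of 73.5 for KYSE-450 and 77.5 for KYSE-520. Their medians were 82.0 for KYSE-890 and 76.5 for KYSE-960. Against the 641 others these were level in KYSE-450, lower in KYSE-520 and higher in KYSE-890 and KYSE-960. The 47 rows that follow the members in the table held 44 features above background on no array, all part of the 641. Their medians were 67.75 for KYSE-450 and 73.25 for KYSE-520, with 77.0 for KYSE-890 and 69.75 for KYSE-960, each lower than over all 641. The 38 such features among the 47 rows before the members had medians of 69.5 for KYSE-450 and 84.0 for KYSE-520, with 75.75 for KYSE-890 and 75 for KYSE-960.

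The share of members under the array median was 70.2% (33 of 47) in both KYSE-450 and KYSE-520 and 63.8% (30 of 47) in both KYSE-890 and KYSE-960. Among the other 641 features it was 60.4% and 60.1% in the first pair of lines and 56.8% and 57.4% in the second. Among the 44 dim features of the rows after the range it was 70.5% for KYSE-450 and 68.2% for KYSE-520, with 61.4% for KYSE-890 and 70.5% for KYSE-960. On all 4 arrays, 15 members (31.9%) lay under the median, against 128 of the others (20%). Most of those 15 were among the last 14 members of the accession run, a split chosen after the values were seen. Of the 33 members before them, 20, 21, 16 and 17 lay under the array median in the same order of lines. Only 2 members, MIMAT0002832 and MIMAT0002844, lay at or above it on all 4 arrays (4.26%), against 60 of the others (9.36%). MIMAT0002832 measured 79.0, 90.5, 85.0 and 85.5 and MIMAT0002844 measured 79.5, 90, 87.5 and 89.0 on the arrays in the same order of lines, all well short of the thresholds.

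**Figure D2:**
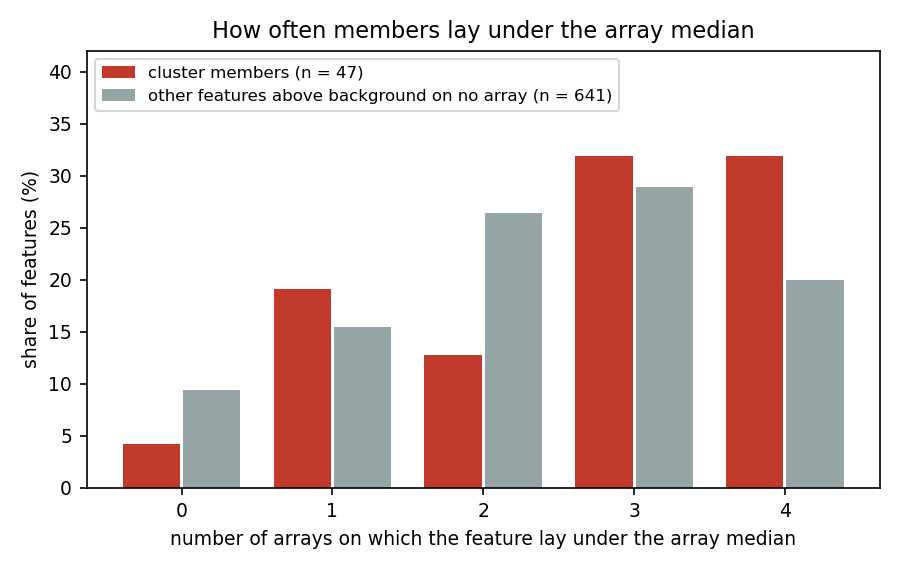
Share of features, in percent, by the number of arrays on which a feature lay under the median of its array, for the 47 members (red) and the 641 other features above background on no array (grey). The red bar at 4 arrays stands at 31.9% and the grey one at 20%. Most members in that red bar belong to the last 14 of the accession run.

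No member differed between lines by the rule used for the whole table. For that comparison the arrays were quantile-normalized, values under the array median were raised to it, and features under it on all 4 arrays were left out, which kept 32 of the 47 members (68.1%) and 713 of all 856 features (83.3%). Of the 32 members, 0 differed by 2-fold or more in any of the 6 pairs of lines. The shares of all 713 features that did were 2.81% between KYSE-450 and KYSE-520, 10.8% between KYSE-450 and KYSE-890 and 11.2% between KYSE-450 and KYSE-960. They were 11.9% for KYSE-520 over KYSE-890, 12.2% for KYSE-520 over KYSE-960 and 5.05% for KYSE-890 over KYSE-960, each in either direction. Likewise 0 of the 32 members stood 2-fold or more apart from all other lines in 1 line, against 5.19% of the 713 features. The floor stood at 80.6 units after normalization and the highest normalized member value at 155, so 0 member values reached 2 times the floor and none of these calls could be made. At 1.5-fold, 2 of the 32 members differed between KYSE-450 and KYSE-890, against 17.8% of the 713 features, and 2 between KYSE-520 and KYSE-890, against 19.9%. In both pairs these were MIMAT0002833 and MIMAT0002839, each higher in KYSE-890. At that fold 1 differed between KYSE-890 and KYSE-960, against 15.0%, and 1 stood apart in 1 line, against 15.6%. Both times it was MIMAT0002839, again higher in KYSE-890. The shares of features are in either direction. A call needed a value of at least 1.5 times the floor, so members dimmer than that on every array could not be called. With no floor on the normalized values and all 47 members, 3 differed by 2-fold between KYSE-450 and KYSE-890, against 11.8% of the 856 features. The count was 1 between KYSE-520 and KYSE-890, against 11.9%, and 1 between KYSE-520 and KYSE-960, against 12.7%, each in either direction.

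In the deposited values, without a floor, 2 member and pair combinations exceeded 2-fold, both below background on both arrays, so no fold is given for them. They belonged to 2 of the 47 members (4.26%), against 57 of the 641 other features above background on no array (8.89%) and 21.4% of all 856 features. MIMAT0002839 measured 42.5 in KYSE-520 and 114.5 in KYSE-890. MIMAT0002859 measured 87.5 in KYSE-520 and 40.5 in KYSE-960. KYSE-450 was higher than KYSE-520 for 18 members and lower for 27, higher than KYSE-890 for 12 and lower for 32, and higher than KYSE-960 for 22 and lower for 25. KYSE-520 was higher than KYSE-890 for 20 members and lower for 27, and higher than KYSE-960 for 27 and lower for 20. KYSE-890 was higher than KYSE-960 for 27 members and lower for 20. The highest of a member's 4 values lay in KYSE-890 for 20 members and in KYSE-520 for 14, with 8 for KYSE-960 and 5 for KYSE-450. Relative to the array medians it lay in KYSE-890 for 16 and in KYSE-520 for 11, with 14 for KYSE-960 and 6 for KYSE-450, so the order of KYSE-520 and KYSE-960 depended on that scaling. KYSE-450 and KYSE-960 had the lowest array medians, at 78.8 and 77.5, against 85.5 in KYSE-520 and 80.5 in KYSE-890.

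**Figure D3:**
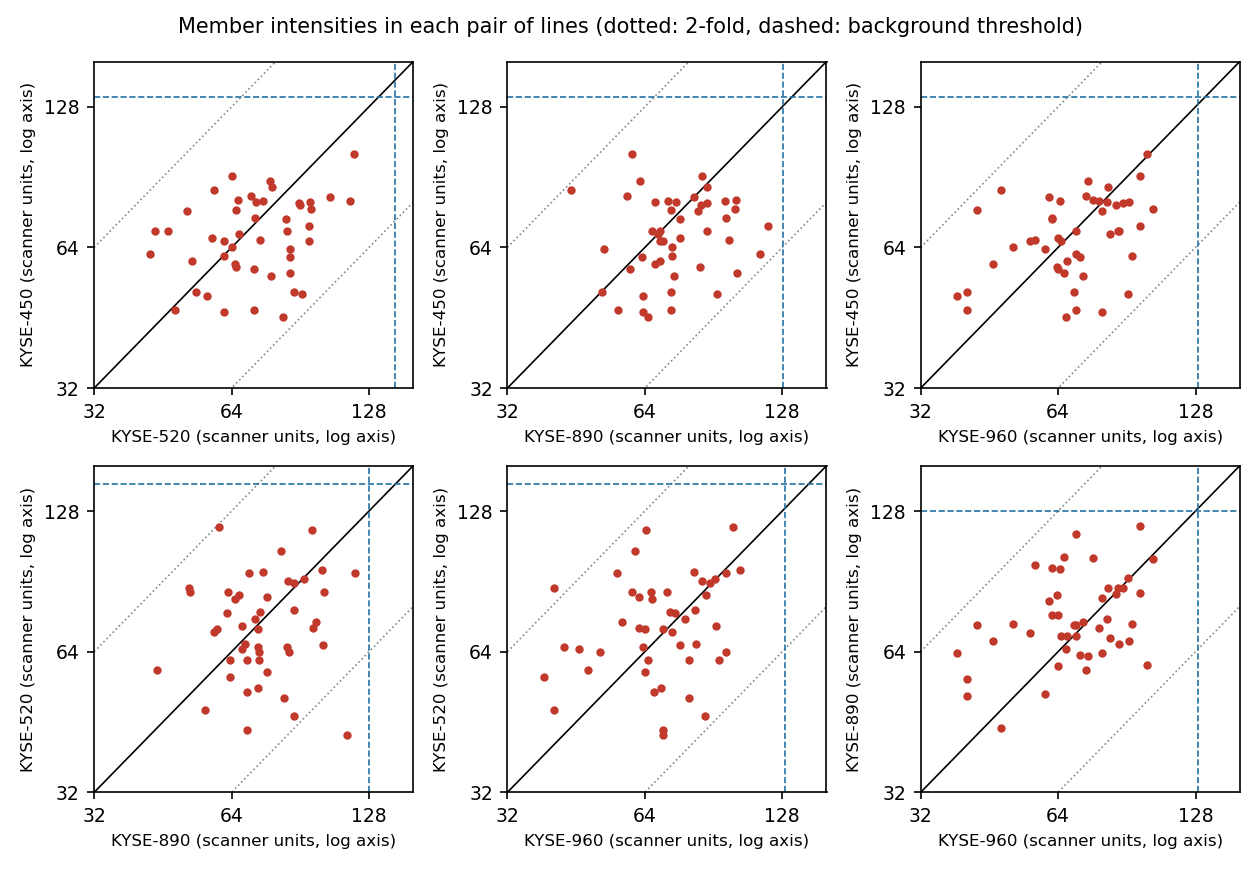
Deposited intensity of the 47 members in each of the 6 pairs of lines, in scanner units on log axes, with equality (solid), 2-fold differences (dotted) and the background thresholds (dashed). The points form a loose cloud below both thresholds in each panel, and 1 point lies outside the dotted lines in each of the panels that set KYSE-520 against KYSE-890 or KYSE-960.

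The intensities of the members were only loosely correlated between arrays. Pearson's r of the 47 intensities was highest for KYSE-450 with KYSE-960, at 0.41, and lowest for KYSE-520 with KYSE-890, at 0.12. The remaining pairs gave 0.33 (KYSE-450 with KYSE-520), 0.14 (KYSE-450 with KYSE-890), 0.27 (KYSE-520 with KYSE-960) and 0.37 (KYSE-890 with KYSE-960). Over the 641 other features below background the same pairs gave 0.21 to 0.34. These are correlations across features of the same 4 chips, not across replicate samples, and they are given as a description.

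Intensities were lower towards the end of the run of accessions. The split used here was chosen after the values had been seen, so it has no test. The last 14 members, from MIMAT0002855 on, had medians of 54.5 for KYSE-450 and 64.5 for KYSE-520, with 66.25 for KYSE-890 and 53.25 for KYSE-960. The 33 members before them had medians of 73.5, 77.5, 82.0 and 76.5 in the same order of lines. Of the last 14, 13 lay under the array median for KYSE-450 and 12 for KYSE-520, with 14 for KYSE-890 and 13 for KYSE-960. Of the first 33 the counts were 20, 21, 16 and 17 in the same order of lines. Spearman's rho between place in the run and intensity was -0.42 for KYSE-450 and -0.14 for KYSE-520, with -0.36 for KYSE-890 and -0.40 for KYSE-960, over the 47 members. The position of the probes on the slide and their sequences were not analysed here.

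**Figure D4:**
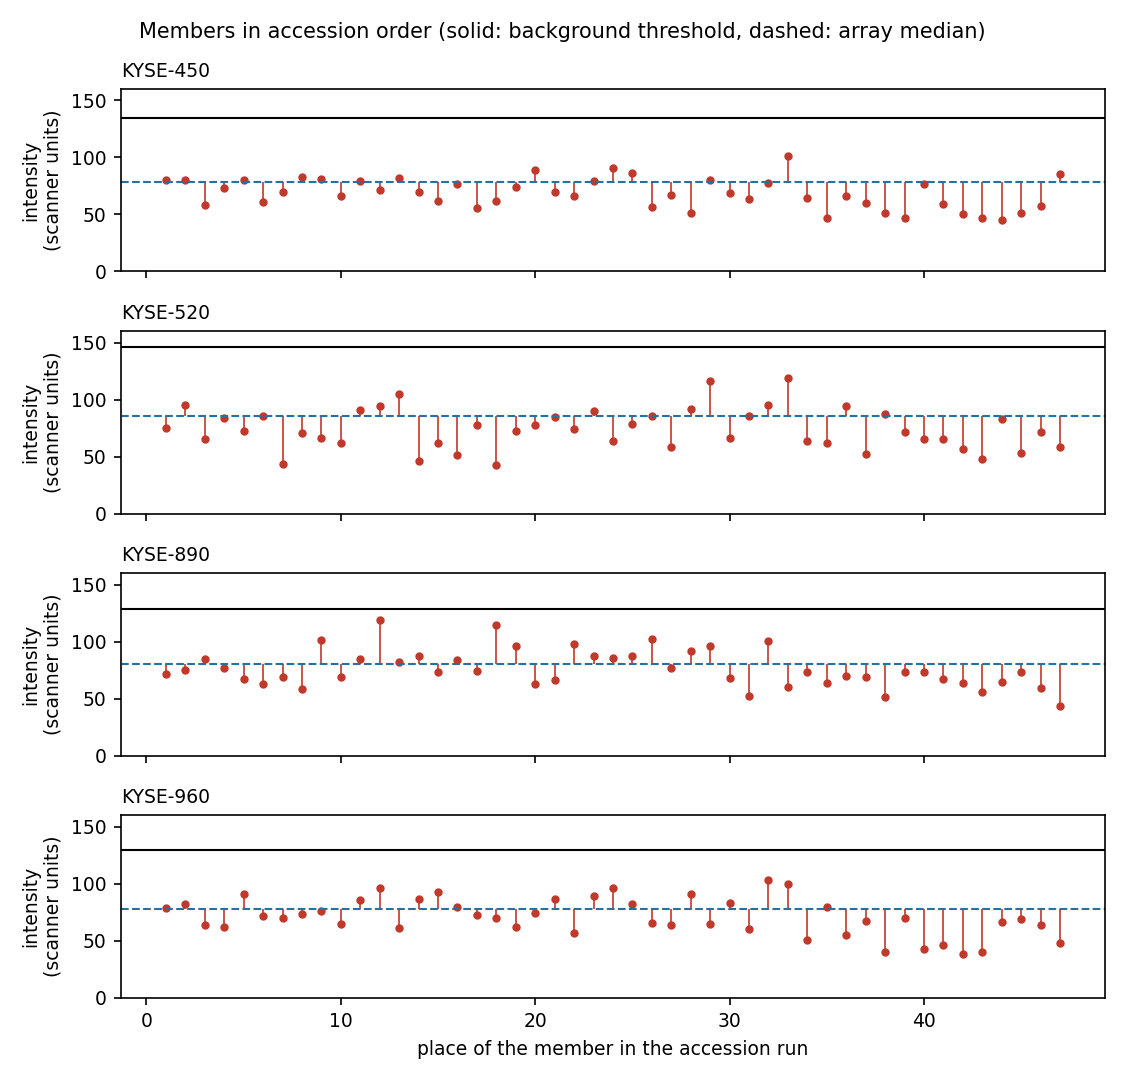
Deposited intensity in scanner units of each member by its place in the accession run, 1 panel per line, with the background threshold (solid) and the array median (dashed) and a stem from each point to the median. From place 34 on, nearly all points hang below the dashed line in each panel, 13, 12, 14 and 13 of the 14 from the top panel down.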

How the data were processed

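Total RNA of 4 lines was measured on 1 one-colour microRNA array each. The authors deposited 1 intensity per feature and array; the table lists linear positive values in steps of 0.5. How background, repeat spots and scaling were handled is not given in these sources. All 4 columns were matched to lines through the sample titles, with 0 columns left over. Detection used the deposited intensities and each array's own threshold. Differences between lines used quantile normalization (limma 3.58.1, R 4.3.3), and all else was computed in Python 3.11.15 with pandas 2.3.3.

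No test was possible with 1 array per line, whose number limits the precision. The members, lists and rules were chosen with earlier results of these data known. By rule, the text names the members above background (there were 0), the 6 nearest to a threshold and the 2 with the lowest mean ratio to it. MIMAT0002832, MIMAT0002844 and MIMAT0002859 were singled out after their values were seen. Lists of microRNAs by name (chromosome 14q32, miR-302, miR-371 to miR-373, miR-17 family, cell type markers) could not be matched to accessions and were not used. The same held for a list of chromosome 19 cluster products outside the accession range. Alternatives were other thresholds, scalings, floors and folds.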

Additional observations from a re-analysis of the deposited data

How the results depend on the processing

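No paired analysis was possible because there was 1 array a line. The count of 0 members above background became 2 in KYSE-890, and 2 on at least 1 array, under both settings that made passing easier for them: at 2 dim-side SDs (26.6% of all features passing on at least 1 array) and, in a setting added after seeing the data, with the threshold on quantile-normalized intensities (22.1% passing). It was also 0 at 5 dim-side SDs, with the SD from the median deviation, and, in added settings, with the SD from the 16th percentile or the threshold on log2 intensity, but these raised the threshold on every array, so their zeros say nothing about stability. The threshold from the features that are not members was higher on 3 arrays and 129.2 against 129.7 in KYSE-960, where the highest member stood at 103.5, so its 0 says no more. Without a floor, 3 of 47 members differed by 2-fold for KYSE-450 over KYSE-890 (11.8% of all features), 1 for KYSE-520 over KYSE-890 (11.9%) and 1 for KYSE-520 over KYSE-960 (12.7%), in either direction. At 1.5-fold, 2 of 32 differed between KYSE-450 and KYSE-890 (17.8% of all features kept) and 2 between KYSE-520 and KYSE-890 (19.9%). At that fold 1 differed between KYSE-890 and KYSE-960 (15.0%) and 1 stood apart in 1 line (15.6%), all in either direction. Members under 1.5 times the floor on every array could not be called there. With the deposited intensities, with array medians set equal, or with the background threshold as floor, which kept 2 members, the 2-fold counts were 0. No member reached 2 times the floor there, so these counts could not be otherwise.

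The median over members of log2 intensity relative to the array median was -0.20 for KYSE-450 and -0.25 for KYSE-520, with -0.14 for KYSE-890 and -0.15 for KYSE-960. Quantile normalization gave -0.18, -0.22, -0.19 and -0.16 in the same order. Relative to the other features above background on no array, a setting added after seeing the data, it was -0.10, -0.16, -0.10 and -0.10. Leaving out members of near-identical sequence was not run, since no accession could be paired with a sequence. The causes of these changes were not tested. Dim signal limits all of these values.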
